A study of Mus musculus with 8 samples.

Results

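Socs1, Socs2, Socs3 and Cish encode the inducible inhibitors of cytokine signalling of the SOCS family, and these 4 genes were found by their symbols among the 27998 genes counted in each library. Each symbol named 1 row of the counts. The data are single-cell RNA-seq of bone marrow hematopoietic stem and progenitor cells (HSPCs) from 16 wild-type mice aged 12 to 14 weeks. The 12 treated mice had been injected once with 50000 IU of IFNα for each 20 g of weight and were sampled 3, 24 or 72 h later, with 4 mice per time point, whereas the 4 control mice had received 100 μl of PBS. Cells were gated as lineage-negative and cKit+ (LK), and LK CD150+ CD48- CD34- cells were sorted in addition, so that hematopoietic stem cells (HSCs) were overrepresented and shares of cell types describe the sorted mixture. The 4 mice of a time point carried 4 different hashtag antibodies and shared a single droplet library, which means that time point and library cannot be told apart.

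SOCS proteins close a negative feedback loop. IFNα binds the receptor chains IFNAR1 and IFNAR2, the attached kinases JAK1 and TYK2 phosphorylate STAT proteins, and STAT complexes enter the nucleus and bind interferon-stimulated response elements (ISREs) or gamma-activated sequences (GAS) in their target genes. SOCS1 and SOCS3 inhibit Janus kinases directly, whereas CISH and SOCS2 occupy phosphorylated docking sites on cytokine and growth hormone receptors and are known as targets of STAT5. All of them carry a SOCS box, through which they recruit a ubiquitin ligase. In blood stem cells, the receptors that signal through this route include those for thrombopoietin, IL-3, IL-6 and the interferons.

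Sequences at the RefSeq start sites show where letters of these elements lie, and are given for the members that RefSeq's promoter table on GRCm38.p6 holds, which are 3 of 4. Capitals mark a match to the ISRE core (GAAA, any 2 bases, GAAA) or to the GAS consensus TTCNNNGAA, searched on both strands. The first sequence covers the 250 bases before the Socs1 start (chr16:10785537-10785786, minus strand), where 2 overlapping ISRE core matches run from position -83 to -74 and from -77 to -68. The second covers the 250 bases before the Socs3 start (chr11:117969367-117969616, minus strand), with a GAS match from -154 to -146. The third is a window around the Cish start (chr9:107296654-107296683, plus strand), with GAS matches from +1 to +9 and from +12 to +20 in the first bases transcribed from that start. The 250 bases upstream of this Cish start (chr9:107296409-107296658) hold no match to either motif and are not printed.
Socs1: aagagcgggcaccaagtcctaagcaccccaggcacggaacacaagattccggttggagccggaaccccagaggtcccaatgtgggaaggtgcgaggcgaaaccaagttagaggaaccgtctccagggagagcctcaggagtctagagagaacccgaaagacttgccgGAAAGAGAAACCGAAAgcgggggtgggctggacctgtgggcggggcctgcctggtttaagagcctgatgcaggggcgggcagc
Socs3: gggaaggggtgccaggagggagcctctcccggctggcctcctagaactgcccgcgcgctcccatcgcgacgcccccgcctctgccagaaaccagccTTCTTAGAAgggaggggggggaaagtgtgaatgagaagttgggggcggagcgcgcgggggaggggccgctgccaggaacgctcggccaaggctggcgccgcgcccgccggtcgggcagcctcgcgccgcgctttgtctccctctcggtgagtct
Cish: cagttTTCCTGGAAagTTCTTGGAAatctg
Among the 32851 promoters of the table, each 300 bases long, 8.30% hold a GAS match and 3.44% an ISRE core match. Over the 250 bases upstream of the start alone, the shares are 7.02% and 2.98%. A match describes letters only, and binding was not measured here.

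The outer limits of the genes in GENCODE vM21 differ from these starts for Socs3 and Cish, whose RefSeq starts lie inside the GENCODE spans, and which start the cells used was not measured. In GENCODE vM21 on GRCm38, Socs1 lies at chr16:10782240-10785536 and Socs3 at chr11:117966079-117970047, both on the minus strand. Socs2 lies at chr10:95385362-95417180 on the minus strand. Cish lies at chr9:107296026-107302784 on the plus strand and overlaps 2 annotated genes of the opposite strand, the pseudogene Gm17040 and the antisense gene Gm17041. Whether reads were counted by strand is not given in the sources used here. The part of those genes in the Cish counts was not tested.

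After filtering, 10046 cells were left, comprising 2474 control cells and 1661, 3462 and 2449 cells of the 3, 24 and 72 h mice, and with median UMIs per cell of 18964, 12017, 18954 and 14763. The libraries shared at most 1 cell barcode per pair. UMIs per mouse ranged from 1102706 to 26446327. Control mouse 4 stood apart from the others, with 58 kept cells against 330 to 1240 in the other mice. The summed level of 14 interferon-stimulated genes was also highest in this control mouse, at 420 CPM (UMI counts scaled to library size) against 287 to 304 CPM in the other controls. Leaving it out changed none of the 12 calls in the whole compartment described next.

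The first question was whether the 4 inhibitors changed with time after IFNα when all kept cells of a mouse were summed, which is called the whole compartment here. A gene was called when edgeR's quasi-likelihood test gave an adjusted p under 0.05 and the log2 fold change exceeded 1 in size. At 3 h, Socs1, Socs2, Socs3 and Cish all rose, with the largest change in Socs1. By this rule 6.9% of the 12042 genes tested were called at 3 h, in either direction. Without the fold limit, 38.8%, 28.3% and 37.4% of genes had an edgeR adjusted p under 0.05 at 3, 24 and 72 h. The share of all genes without overlap between treated and control mice was not counted. Statements on overlap below therefore describe the mice only. At 24 h and 72 h, with 2.22% and 2.86% of all genes called, none of the 4 was called. All 8 estimates were above 0, where the medians of all genes tested were 0.0039 and 0.0188. All but that of Socs3 at 24 h had an edgeR adjusted p under 0.05. The mixture of cell types can be held as in control, as described below. The 72 h log2 ratios were then 0.20 for Socs1, -0.062 for Socs2, 0.77 for Socs3 and 0.12 for Cish.

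Socs1, a direct inhibitor of Janus kinases in the interferon pathway, stood at 5.70, 5.62, 4.52 and 6.09 CPM in control mice 1 to 4. It reached 39.2, 44.7, 43.9 and 38.4 CPM at 3 h. Every 3 h mouse thus lay far above every control mouse. The log2 fold change was 2.97 (SE 0.14, edgeR adjusted p = 2.98e-14), or 7.85-fold. At 24 h the mice had 7.64, 11.3, 9.48 and 8.89 CPM, all still above the highest control mouse, and at 72 h they had 9.52, 8.19, 5.63 and 6.41 CPM, with 3 of 4 above it. The estimates were 0.84 (SE 0.14, edgeR adjusted p = 1.53e-04) and 0.50 (SE 0.16, edgeR adjusted p = 0.0183), both below the fold limit.

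Socs3, which binds gp130-type receptors and inhibits their kinases, was counted in few cells. Its level was 1.61, 1.25, 1.81 and 0 CPM in control and 7.88, 5.89, 5.94 and 4.95 CPM at 3 h. The groups did not overlap, and the log2 fold change was 2.01 (SE 0.26, edgeR adjusted p = 2.19e-06). The control mouse at 0 is mouse 4, whose UMIs allow a level of up to 2.72 CPM (3 counts), and without it the value was 1.96. At 24 h Socs3 stood at 1.32, 3.17, 2.49 and 2.32 CPM, and at 72 h at 3.39, 2.02, 3.22 and 3.01 CPM. All 4 mice at 72 h lay above every control, with a log2 fold change of 0.96 (SE 0.27, edgeR adjusted p = 0.00703), just below the limit of 1. The 24 h value was 0.67 (SE 0.25, edgeR adjusted p = 0.0529). Leaving out control mouse 1, control mouse 3 or 72 h mouse 2 moved the 72 h value to 1.00, 1.10 and 1.08, past the limit.

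Cish, an inhibitor of receptors that signal through STAT5, had 2.64, 3.80, 3.03 and 3.48 CPM in control. At 3 h it had 8.31, 9.16, 8.47 and 8.92 CPM, without overlap, and a log2 fold change of 1.46 (SE 0.15, edgeR adjusted p = 7.72e-08). At 24 h the level was 5.58, 5.09, 4.57 and 5.05 CPM and at 72 h 5.09, 3.93, 5.72 and 6.22 CPM, so that every treated mouse was above every control mouse. The fold changes were 0.68 (SE 0.14, edgeR adjusted p = 8.29e-04) and 0.74 (SE 0.15, edgeR adjusted p = 5.04e-04). With class shares held at control, as described below, the log2 ratios of Cish were 0.31 at 24 h and 0.12 at 72 h. Their exact permutation p were 0.2 and 0.6, and 1 of 4 and 0 of 4 treated mice then lay above every control mouse.

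Socs2, a regulator of growth hormone receptor signalling, had 4.51, 4.43, 2.77 and 5.22 CPM in control and 7.44, 10.2, 11.5 and 8.32 CPM at 3 h. The groups did not overlap and the log2 fold change was 1.28 (SE 0.26, edgeR adjusted p = 4.20e-04). At 24 h the mice had 7.05, 9.88, 4.17 and 6.25 CPM, and at 72 h 7.60, 4.71, 8.31 and 6.12 CPM. At both times 1 treated mouse lay within the control range, and the fold changes were 0.84 (SE 0.22, edgeR adjusted p = 0.00777) and 0.79 (SE 0.24, edgeR adjusted p = 0.0143).

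**Figure D1:**
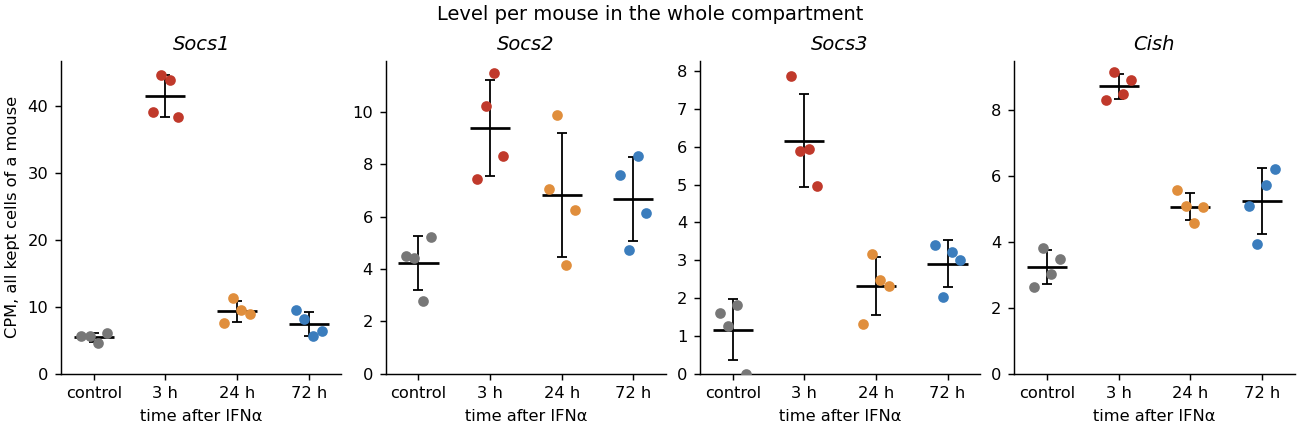
Level of each gene (CPM, vertical axis, own scale per panel, starting at 0) in the whole compartment of each of the 16 mice by time after IFNα, with the mean (line) and SD (bars) of 4 mice. Socs1 at 3 h sits between 38.4 and 44.7 CPM and every control mouse at or below 6.09 CPM.

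Between time points, Socs1 and Socs3 fell from 3 h to 24 h, by 2.13 (SE 0.12, edgeR adjusted p = 1.43e-12) and by 1.34 (SE 0.23, edgeR adjusted p = 1.24e-04) on the log2 scale. This contrast called 3.55% of all genes. The step was -0.78 for Cish (SE 0.14, edgeR adjusted p = 1.37e-04) and -0.44 for Socs2 (SE 0.23, edgeR adjusted p = 0.157), neither past the limits. From 24 h to 72 h none of the 4 passed by edgeR's test, and their log2 changes lay between -0.34 and 0.29. Without adjustment, 1 of 4 (Socs1) had a p under 0.05, and 0.756% of all genes were called. The comparisons share their control mice, and the steps share the 24 h mice, so their values are not independent of each other.

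**Figure D2:**
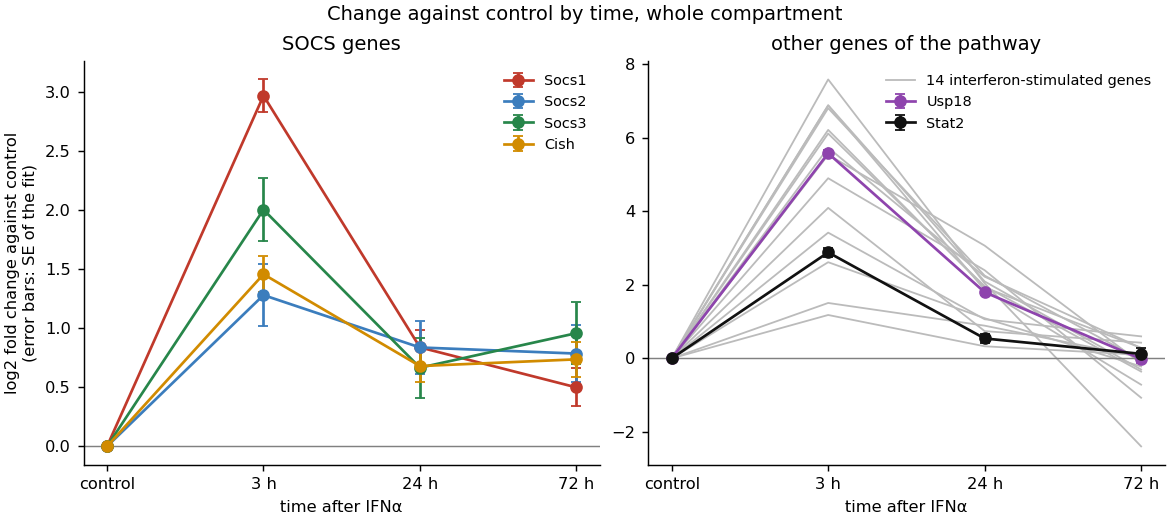
Log2 fold change against control (vertical axis) at each time point (horizontal axis, times evenly spaced and not to scale) in the whole compartment, with the SE of the edgeR fit. At left, the SOCS genes start at 2.97 (Socs1), 2.01 (Socs3), 1.46 (Cish) and 1.28 (Socs2) at 3 h and lie between 0.50 and 0.96 at 72 h, and at right Usp18 falls from 5.58 at 3 h to -0.017 at 72 h beside Stat2 and the 14 interferon-stimulated genes (thin grey lines).

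To see which cells carried these transcripts, control cells were clustered with the 4 genes and all pathway genes left out of the clustering, and treated cells took the label of their nearest control cells. Of 14 clusters, 10 were named in 6 classes by their leading marker genes. The HSC-like class was cluster 8, with 174 control cells. Hlf, Mllt3 and Ly6a were among its 10 leading genes, and so were Jchain, Cd79a, Mzb1, Ebf1 and Vpreb3, which are genes of the B lineage. Its cells held 1588 CPM of the HSC marker list without Ly6a and Ifitm1, against 202 CPM in the other control cells. In this class, 24 of 174 control cells and 10 of 218 cells at 3 h held at least 2 UMIs of the B cell list. The LMPP-like class (lymphoid-primed multipotent progenitors) comprised clusters 2 and 11, the latter led also by the interferon-stimulated genes Iigp1, Ifit1 and Isg15. The myeloid progenitor-like, erythroid progenitor-like and MK (megakaryocyte) progenitor-like classes held 715, 252 and 272 control cells. Control mouse 4 had too few cells outside the myeloid class, so that the other classes have 3 control mice. Clusters 4, 7, 10 and 14 stayed unnamed, and the basophil, mast cell and eosinophil progenitor-like cells (60 in control) were too few to test.

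Socs1 rose at 3 h in each of the 4 classes in which its counts were high enough to be tested. In the HSC-like class it stood at 10.4, 23.6 and 12.4 CPM in control and at 158, 157, 143 and 123 CPM at 3 h, with a log2 fold change of 3.33 (SE 0.29, edgeR adjusted p = 5.82e-13), or 10.1-fold, where 5.96% of all genes were called. In the LMPP-like class it went from 6.46, 7.98 and 4.26 CPM to 42.9, 53.2, 44.5 and 27.2 CPM, with a value of 2.72 (SE 0.33, edgeR adjusted p = 6.01e-08; 4.86% of genes called). In neither class did the mice of the groups overlap. In the myeloid progenitor-like class, control had 4.01, 4.53, 2.76 and 6.93 CPM and 3 h had 15.4, 32.6, 16.4 and 21.6 CPM, giving 2.39 (SE 0.23, edgeR adjusted p = 1.88e-10), where 4.17% of genes were called. In the MK progenitor-like class, control had 12.0, 12.9 and 6.36 CPM and 3 h had 37.1, 34.1, 53.7 and 52.7 CPM, giving 2.04 (SE 0.25, edgeR adjusted p = 1.09e-07), where 4% of genes were called. These groups did not overlap either. Erythroid progenitor-like cells held too few Socs1 counts for the test. They had 1.47, 0.859 and 0 CPM in control and 2.27, 5.69, 19.3 and 13.2 CPM at 3 h, again without overlap, in a class with 4.83% of all genes called at 3 h. The part of free RNA in these low counts was not tested.

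The order of the classes by Socs1 level was HSC-like, MK progenitor-like, LMPP-like, myeloid and erythroid progenitor-like both in control and at 3 h. In control, the ranges of the first 4 overlapped from neighbour to neighbour, and the erythroid class (0 to 1.47 CPM) lay below the myeloid class (2.76 to 6.93 CPM). At 3 h, the HSC-like class (123 to 158 CPM) lay above the MK progenitor-like class (34.1 to 53.7 CPM), and the remaining neighbours overlapped. At 24 h and 72 h the order was the same, with the HSC-like class above the MK progenitor-like class without overlap at 24 h (22.0 to 36.2 against 11.7 to 18.1 CPM) but not at 72 h. The unnamed cluster 4, led by Wfdc17, Dntt and Hlf, had 13.4 ± 7.42 CPM (SD, n = 3) in control and 66.0 ± 15.9 CPM (SD, n = 4) at 3 h. In the unnamed cluster 10, whose leading genes were Nusap1 and Mki67 of the cell cycle, the values were 4.89 ± 0.926 and 31.8 ± 13.9 CPM. The unnamed cluster 7, led by Gzmb and Scin, had 1.70, 0 and 0 CPM in control. At 3 h its mice had 34.2, 20.3, 10.2 and 72.2 CPM.

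At 24 h and 72 h no class had a called change of Socs1. At 24 h, the myeloid progenitor-like value was 0.77 (SE 0.21, edgeR adjusted p = 0.0106) with 1.44% of genes called, and the values were 1.02 in the HSC-like class (SE 0.35, edgeR adjusted p = 0.136), 0.62 for LMPP-like and 0.58 for MK progenitor-like cells. These classes had 0.738%, 1.2% and 0.635% of genes called at 24 h, and the erythroid class 1.76%. At 72 h the HSC-like mice had 41.5, 23.3, 12.9 and 12.0 CPM, so that 1 of 4 exceeded the highest control mouse. The shares called at 72 h were 0.687% (HSC-like), 0.837% (LMPP-like), 1.11% (myeloid), 0.846% (erythroid) and 0.647% (MK).

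Per cell, a Socs1 UMI was found in 10.3% of control cells and 34.9% of cells at 3 h, although the 3 h cells were shallower. With every cell thinned to 5000 UMIs, the shares were 3.24% of 2439 cells and 18.5% of 1600 cells. In the HSC-like class they were 7.27% and 42.2%. The share of cells that free RNA alone would give was not measured for Socs1, since no class is known to lack it. The most UMIs of Socs1 in 1 cell were 7 in control, 16 at 3 h and 19 at 24 h, the last in an LMPP-like cell of mouse 3 that held 19 of the 38 Socs1 UMIs of that class and mouse.

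Socs3 could be tested in the HSC-like and the LMPP-like class only. In LMPP-like cells it rose at 3 h, from 2.66, 2.52 and 3.83 CPM in control to 7.67, 11.3, 10.0 and 3.40 CPM, with 1 of 4 mice inside the control range. The log2 fold change was 1.43 (SE 0.41, edgeR adjusted p = 0.0131). This call was lost without control mouse 2 (1.32, adjusted p = 0.0516 in edgeR's test) or without 3 h mouse 3 (1.21, adjusted p = 0.119 in edgeR's test). In HSC-like cells the levels were 11.7, 9.43 and 8.89 CPM in control and 31.5, 16.01, 22.3 and 28.3 CPM at 3 h, without overlap, and the value of 1.19 (SE 0.49, edgeR adjusted p = 0.112) was not called. With the interferon-stimulated genes left out of the clustering it was 1.38 (edgeR adjusted p = 0.00541), in a class that then comprised 2 clusters of 223 and 178 control cells, the former led by Wfdc17, Dntt and Myl10, and without the cells that held B cell transcripts 0.87 (edgeR adjusted p = 0.326). In control, the HSC-like class (8.89 to 11.7 CPM) lay above the LMPP-like class (2.52 to 3.83 CPM), which overlapped the MK progenitor-like class (1.52 to 3.15 CPM), and the myeloid class reached at most 0.879 CPM. Among 25645297 UMIs of erythroid progenitor-like cells from all groups, no UMI of Socs3 was counted, which allows a level of up to 0.117 CPM (3 counts).

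Among the named classes, Socs2 and Cish were highest in HSC-like and MK progenitor-like cells. The unnamed cluster 4 also held both, with 9.96 ± 4.98 CPM of Socs2 and 8.67 ± 2.72 CPM of Cish in control (SD, n = 3 each), and its Cish range (5.85 to 11.3 CPM) overlapped that of the MK progenitor-like class. At 3 h it had 16.03 ± 5.45 CPM of Socs2 and 17.3 ± 9.76 CPM of Cish (SD, n = 4 each). In control, Socs2 had 34.5 ± 19.2 CPM (SD, n = 3) in the HSC-like class and 20.0 ± 7.71 CPM (SD, n = 3) in the MK progenitor-like class, whose ranges overlapped. The next class, LMPP-like, had 1.78 ± 1.09 CPM (SD, n = 3) and did not overlap either of them, and erythroid cells had 1.24 ± 0.12 CPM (SD, n = 3). At 3 h, Socs2 had 59.2 ± 14.96 CPM in HSC-like and 16.6 ± 6.21 CPM in MK progenitor-like cells (SD, n = 4 each), and these no longer overlapped. At 24 h the levels were 49.5 ± 15.5 and 15.3 ± 6.48 CPM and at 72 h 34.0 ± 13.1 and 17.9 ± 6.44 CPM, with overlap at 72 h only. In control, myeloid progenitor-like cells had the lowest level, with 2 UMIs of Socs2 in 715 control cells. Cish had 28.01 ± 12.3 CPM (SD, n = 3) in the HSC-like class, 10.6 ± 2.13 CPM (SD, n = 3) in the MK class and 2.42 ± 1.37 CPM (SD, n = 3) in the LMPP-like class. These did not overlap between neighbours, while the LMPP-like, erythroid and myeloid classes overlapped in turn. Cells with a UMI of Socs2 made up 24.1% of HSC-like control cells and 0.28% of the deeper myeloid progenitor-like control cells, with median UMIs per cell of about 10190 and 34000. For Cish the shares were 20.7% and 1.82%.

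Within these classes neither gene had a called change at any time point. In the HSC-like class Socs2 had 44.0, 47.1 and 12.4 CPM in control and 55.2, 44.8, 56.5 and 80.2 CPM at 3 h, and 3 of 4 treated mice lay above every control. The log2 fold change was 0.73 (SE 0.32, edgeR adjusted p = 0.143). Cish had 15.5, 40.1 and 28.4 CPM in control and 43.4, 32.0, 32.7 and 70.8 CPM at 3 h, with overlapping groups and a value of 0.64 (SE 0.33, edgeR adjusted p = 0.233). In the MK progenitor-like class the 3 h values were -0.24 for Socs2 (SE 0.36, edgeR adjusted p = 0.786) and -0.13 for Cish (SE 0.40, edgeR adjusted p = 0.903). Cish there had 12.4, 1.42, 13.02 and 13.2 CPM at 3 h, and without the mouse at 1.42 CPM its value was 0.29. In both classes together, the 4 tests at 24 h gave values from -0.40 to 0.54 and the 4 at 72 h from -0.21 to 0.22. Without adjustment, 1 of these 12 tests had a p under 0.05 (Socs2 in the HSC-like class at 3 h). In the remaining classes the counts were too low for the test. Among these, the 4 myeloid progenitor-like samples at 3 h had 2.01 to 3.69 CPM of Cish against 0 to 0.735 CPM in control, without overlap. The control at 0 was mouse 4, with 15 cells of this class. The part of free RNA in these low counts was not tested.

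**Figure D3:**
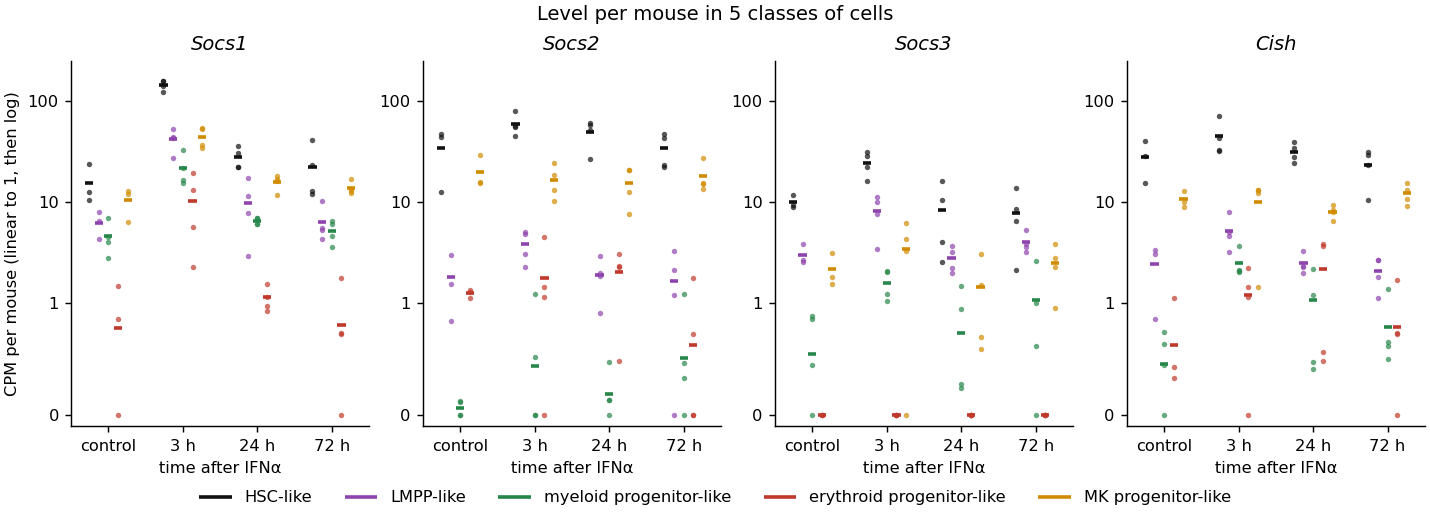
Level of each gene (CPM, linear up to 1 and logarithmic above) per mouse in 5 classes of cells by time after IFNα, with points for mice and lines for means. Socs1 at 3 h lies above every control mouse in each class, whereas Socs2 and Cish in the HSC-like (black) and MK progenitor-like (yellow) classes overlap between groups, and Socs3 is at 0 in the erythroid class throughout.

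Whether a change differed between classes was tested within mice with an F test over the class-by-time terms. By edgeR's quasi-likelihood F test, none of the 4 genes had an adjusted p under 0.05 at 3, 24 or 72 h, where 5.04%, 3.12% and 0.398% of genes passed. Without adjustment, 2 of 12 tests had a p under 0.05, Socs1 at 3 h (edgeR adjusted p = 0.266) and Cish at 24 h (edgeR adjusted p = 0.286). The test covered all classes jointly. Socs2, Socs3 and Cish had too few counts in several of them, so it could show little for these genes. The larger fold of Socs1 in HSC-like than in MK progenitor-like cells is not shown to be a difference between classes. These 2 classes were not compared as a pair.

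The sorted mixture also changed in makeup. HSC-like cells held 2.44 to 4.90% of a control mouse's UMIs, 4.26 to 9.01% at 3 h, 3.73 to 5.26% at 24 h and 5.47 to 7.17% at 72 h. Myeloid progenitor-like cells, where Socs2 and Cish were lowest or near lowest, held 37.7 to 45.3% in control, 21.0 to 32.1% at 3 h, 28.4 to 34.5% at 24 h and 21.5 to 27.8% at 72 h. The unnamed cluster 4 held 5.17 to 7.08% in control and 12.2 to 15.7% at 3 h. By cells, the myeloid progenitor-like share was 25.9 to 29.99% in control and 12.3 to 18.8% at 3 h, and the median UMIs per cell of this class were about 34000 and 25130, so that both measures were lower.

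With class shares held at their control means, the level of a gene shows the change within classes. The minimum of 10 cells was not applied here, so control mouse 4 counted as 1 of the 4 control mice. It had 6 HSC-like, 9 LMPP-like, 8 MK progenitor-like and 5 erythroid progenitor-like cells. Socs1 then stood at 5.39 ± 0.69 CPM in control and 34.4 ± 4.28 CPM at 3 h (SD, n = 4 each), a log2 ratio of 2.68 (two-sided exact permutation p = 0.0286, the smallest that 4 against 4 mice can give). Socs3 had a ratio of 1.83 and Cish of 0.95 at 3 h, both with an exact permutation p of 0.0286. Control mouse 4 had a class-weighted Socs3 level of 0, and without this mouse the 3 h ratio of Socs3 was 1.41. With 1 mouse left out in turn, the Socs3 ratio at 72 h ranged from 0.35 to 1.07. Socs2 went from 4.29 ± 0.85 to 5.91 ± 0.75 CPM (SD, n = 4 each), a ratio of 0.46 with an exact permutation p of 0.0571, against 1.15 without the weighting. At 24 h, Socs1 alone had an exact permutation p under 0.05 (ratio 0.62, p = 0.0286). At 72 h, the ratios were 0.20 for Socs1, -0.062 for Socs2, 0.77 for Socs3 and 0.12 for Cish, with exact permutation p from 0.114 to 0.914. Adjusted over the 12 tests, the smallest of these exact permutation p became 0.0857.

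The converse calculation held each class at its control level and let the shares move. It gave log2 ratios at 3 h of 0.32 for Socs1, 0.69 for Socs2, 0.50 for Socs3 and 0.63 for Cish, and at 72 h of 0.32, 0.70, 0.47 and 0.62. The ratios measured over all cells were 0.66 for Socs2 and 0.69 for Cish at 72 h, and 2.92 for Socs1 at 3 h. What part of the measured ratios came from the change in shares was not tested.

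**Figure D4:**
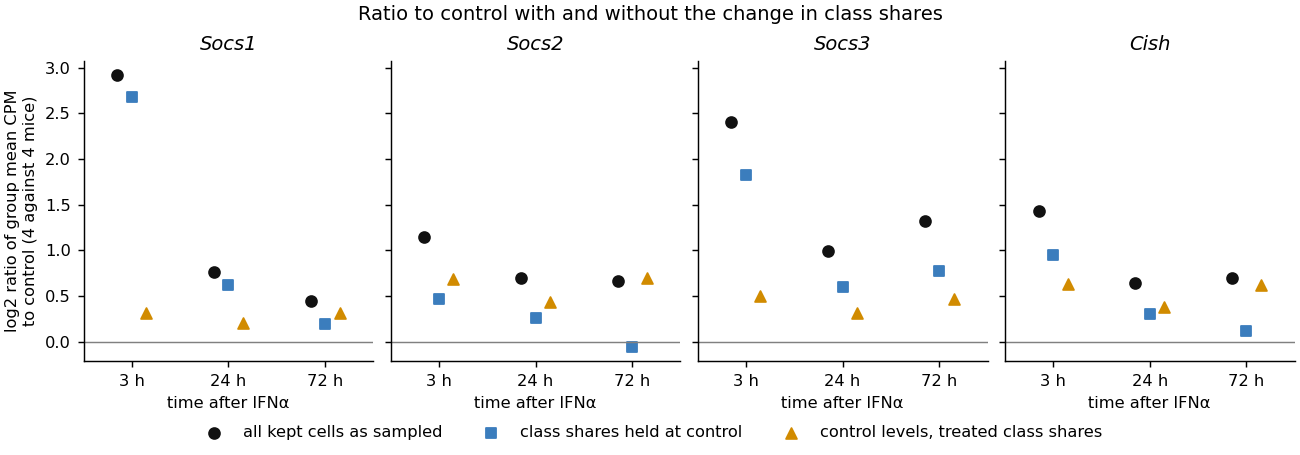
Log2 ratio of group mean CPM to control (vertical axis, 4 against 4 mice) at each time point, over all kept cells (black), with class shares held at control (blue) and from the change in shares alone at control levels (yellow). For Socs1 at 3 h the blue value is 2.68 and the yellow 0.32, and for Socs2 at 72 h they are -0.062 and 0.70.

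The other genes of the route were taken by list and counted in the whole compartment. Of the remaining SOCS family members Socs4, Socs5, Socs6 and Socs7, none of 4 was called at any time, and neither was any of 4 SOCS box ligase partners or of 4 Janus kinases. The median log2 fold changes of these lists at 3 h were -0.013, 0.18 and 0.31, against -0.027 over all genes tested. Of the STATs, Stat2, a subunit of the complex that binds ISREs, rose at 3 h from 5.85 ± 0.487 to 44.2 ± 7.41 CPM (SD, n = 4 each), or by 2.88 on the log2 scale (SE 0.12). Stat4 rose by 1.12 (SE 0.09). Neither was called at 24 h or 72 h.

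Among 20 receptor chains, of which 19 were tested, 2 rose and 1 fell at 3 h. Il2rg, the common gamma chain, rose by 1.32 (SE 0.09) and Csf2rb2, a beta chain of the IL-3 receptor, by 1.81 (SE 0.27), whereas Csf1r, the receptor for M-CSF, fell by 1.09 on the log2 scale (SE 0.15). Of 19 other inhibitors of cytokine signalling, 1 was called. Usp18, which blocks JAK1 at the IFNAR2 chain, rose from 7.36 ± 2.65 to 295 ± 23.4 CPM (SD, n = 4 each) at 3 h (5.58, SE 0.08) and was still called at 24 h (1.80, SE 0.09), but not at 72 h (-0.017, SE 0.12). Of 8 STAT5 targets tested, Ccnd2 (1.58, SE 0.05) and Pim1 (1.75, SE 0.13) rose at 3 h and none was called later. Of 6 STAT3 targets tested, Bcl3 rose at 3 h (1.21, SE 0.18).

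All 14 interferon-stimulated genes listed for timing rose at 3 h, with a median of 5.63, and 11 of 14 were called at 24 h, with a median of 1.94. The largest 3 h changes were those of Ifit3 (7.58, SE 0.22), Ifit1 (6.88, SE 0.15), Cxcl10 (6.88, SE 0.47) and Mx1 (6.80, SE 0.17). Cxcl10 stood at 48.7 CPM in control mouse 4 and at 0.622 to 1.01 CPM in the other controls, against 204 to 237 CPM at 3 h. At 72 h none was higher and 2 were lower, Ifit3 (-2.39, SE 0.73) and Oas2 (-1.07, SE 0.35), and 1 of 14 was called without control mouse 4, which had 13.1 CPM of Ifit3 against 0.341 to 1.71 CPM in the other controls. At 24 h, when Usp18 and most of these genes were called, none of the 4 SOCS genes passed the fold limit. That limit was the same for genes whose 3 h changes differed, from 1.28 to 2.97 for the SOCS genes against 5.58 for Usp18. It therefore does not compare how fast the genes returned. Of 16 early-response and dissociation genes, Atf3 rose at 3 h (4.03, SE 0.49) and Btg2, Hspa1a and Hspa1b fell. Hspa1a and Hspa1b also fell at 24 h and 72 h, and Egr1 (1.21, SE 0.25) and Nr4a1 (1.65, SE 0.56) rose at 72 h. The summed level of the list ranged from 1615 to 2595 CPM in control, 1548 to 1891 CPM at 3 h, 1554 to 1756 CPM at 24 h and 1601 to 2623 CPM at 72 h, and its part in the results was not tested.

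Cells that carry CD4, CD8, CD11b, B220, Gr-1 or Ter119 had been depleted before the sort, which would remove most mature B cells, T cells, neutrophils and macrophages. Of markers of such cells, the B cell list summed to 40.9 to 52.1 CPM in control and 33.6 to 36.8 CPM at 3 h, where Ms4a1 was at 0. The macrophage list stood at 3.48 to 13.4 and 2.40 to 4.81 CPM and the mature neutrophil list at 6.76 to 7.38 and 3.92 to 5.25 CPM. For the stromal list the ranges were 2.61 to 6.54 CPM in control and 2.63 to 10.1 CPM at 3 h, with Cdh5 and Col3a1 at 0 at 3 h. For T and NK cells they were 327 to 605 and 314 to 416 CPM, with Cd3e, Cd3g, Gzma and Il2rb at 0 at 3 h. At 3 h the B cell, T and NK cell, macrophage and neutrophil lists had no summed level above the highest control mouse, whereas the stromal list did. Their part in the results was not tested.

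Across the 20 means of 5 classes and 4 time points, the log2 CPM of Socs2 and Cish were the most alike of the 4 genes (Pearson r = 0.972), and Socs1 and Socs2 the least (0.672). Among 7510 genes outside the family with a mean of at least 10 CPM over these points, Socs1 was most like Casp4 (r = 0.98), Grcc10 (0.96) and Treml2 (0.96). Socs2 was most like Skil, Flywch2 and Mycn (0.98 each), and Cish like Sema4b (0.97), Skil (0.97) and Ubl7 (0.97). Socs3 was most like Ccl4 (0.97), Usp12 (0.96) and Calcrl (0.96). The points share libraries and mice, and the correlations describe them without a test. The inflammatory caspase Casp4 and the chemokine Ccl4 were picked by this rule only, as the other genes named here.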

How the data were processed

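For every cell barcode, the authors deposited the UMI count of each gene, made with Cell Ranger 3.1.0 on mm10 from 10x Genomics 3′ libraries, without normalization. From Seurat's hashtag demultiplexing they deposited hashtag and RNA counts per barcode, a margin score between hashtags and the resulting mouse, multiplet or negative label. The gene annotation is not given in the sources used here.

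Barcodes were kept when they had a single hashtag, 700 or more genes and mitochondrial UMIs of 5% or less, as in the paper's methods. Multiplets between mice were thus removed, whereas doublets within a mouse remain. Control cells were clustered on 500 variable genes at a Leiden resolution of 0.8, with Scanpy 1.11.5 under Python 3.11.15, and labels were carried to treated cells after a mutual nearest neighbor correction. A cluster took the class with most markers among its 10 leading genes. UMI counts were summed per mouse (classes: at least 10 cells) and fitted with edgeR 4.0.16 under R 4.3.3, with filterByExpr, TMM factors, the quasi-likelihood test and Benjamini-Hochberg adjustment over all genes. CPM values are TMM-scaled. Class-weighted levels used all kept cells without that minimum and were compared over mice with a two-sided exact permutation test. P-values set a change against the spread between mice. The mice of a time point shared 1 library, so that spread holds no difference between libraries. SE is the log2 fold change divided by the root of the F statistic.

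In simulated counts, the changed genes were drawn at random from all genes that passed the filter, without a shift in class shares. The percentages below therefore do not give the recovery of the SOCS genes, whose counts were low. Recovery was scored by an edgeR adjusted p under 0.05 and the right direction, without the fold limit that a call needs. By this score, 96.9% of 4-fold changes were recovered in the whole compartment (11927 genes) and 98% in the HSC-like class (7488 genes). For 2-fold changes the shares were 90.9% and 67.7%. The median estimate of the 2-fold changes in the whole compartment was 0.995 on the log2 scale, just under the fold limit. Of the genes with an adjusted p under 0.05, 3.14% and 1.8% were false. In the myeloid progenitor-like class (9550 genes), 99% and 87% were recovered. There 8.37% of the genes with an adjusted p under 0.05 were false, above the 5% aimed at.

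The 4 genes and the gene and marker lists were chosen with earlier results of these data known. Pathway genes are given by count, with values for at most 4 per list among those called, largest first; Btg2, Egr1 and Oas2 lie outside this rule and were named after their values were seen, to complete short counts. Genes alike were the 3 with the highest correlation. Older symbols were matched by gene ID. A protein table and the Socs2 promoter were not used here, and some listed genes are not reported here.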

Additional observations from a re-analysis of the deposited data

Results flagged for a closer look

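Among 66 sets of 4 mice with a mean of at least 1 CPM, 3 held a mouse far from the others by Dixon's test at the 95% level, where chance marks about 1 set in 20. Socs2 in MK progenitor-like cells at 72 h was 27.5 CPM in mouse 3 and 13.5 to 15.6 CPM in the other mice. Cish in MK progenitor-like cells at 3 h was 1.42 CPM in mouse 2 and 12.4 to 13.2 CPM in the other mice. Cish in myeloid progenitor-like cells at 3 h was 3.69 CPM in mouse 4 and 2.01 to 2.10 CPM in the other mice. Cish counts in that class were too low for the edgeR test. Dixon's test was run on CPM and does not weigh how few UMIs a value rests on.

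Barcodes outside the report's comparisons were higher in Socs1 and Socs3 at 3 h among hashtag multiplets. In hashtag multiplets at 3 h, Socs1 stood at 52.0 CPM (57 of 1096382 UMIs, exact 95% Poisson interval 39.4 to 67.4), above 7.58 CPM (4.86 to 11.3) in control multiplets. Socs3 stood at 15.5 CPM (9.03 to 24.8) there and at 1.58 CPM (0.513 to 3.69) in control multiplets. Socs2 in multiplets was 4.56 CPM (1.48 to 10.6) at 3 h and 5.69 CPM (3.37 to 8.99) in control, and Cish was 7.30 CPM (3.15 to 14.4) and 1.90 CPM (0.696 to 4.13), with overlapping intervals. In barcodes with a single hashtag that failed the filters, the 4 genes had overlapping intervals at 3 h and in control. Socs1 there was 19.4 CPM (8.89 to 36.9) at 3 h and 5.21 CPM (1.69 to 12.15) in control. Socs2 stood at 4.32 and 4.16 CPM, Socs3 at 2.16 and 2.08 CPM and Cish at 2.16 and 5.21 CPM. Hashtag-negative barcodes at 3 h held 17.6 CPM of Socs1 (6.47 to 38.4) and 14.7 CPM of Socs3 (4.77 to 34.3). Socs2 and Cish stood at 0 and 2.94 CPM in them. Control negatives held no UMI of the 4 genes, which allows up to 7.39 CPM, so these intervals overlapped too. These intervals cover counting error only, and multiplets have no replicate mice.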

How the results depend on the processing

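Whole-compartment calls at 3 h of Socs1 and Socs3 held under each alternative edgeR or DESeq2 fit. With class shares held at control, their ratios of 2.68 and 1.83 stayed above the fold limit. Their exact permutation p was 0.0286 unadjusted but 0.0857 adjusted over 12 tests. Socs2 and Cish fell under the fold limit of 1 with class shares held at control (0.46 and 0.95). They also did so with cluster shares held at control (0.48 and 0.91), an alternative chosen after seeing the data. The same settings turned Socs2 at 72 h to -0.062 and -0.080. With each mouse left out in turn, the 3 h values ranged from 2.87 to 3.03 (Socs1), 1.09 to 1.39 (Socs2), 1.88 to 2.14 (Socs3) and 1.35 to 1.60 (Cish), and Socs3 at 72 h from 0.85 to 1.10. Without a low-count filter, 1044, 413 and 516 genes were called at 3, 24 and 72 h, against 831, 267 and 345. With library sizes alone, the median of all genes at 3 h shifted from -0.027 to -0.175 and the share of higher calls from 75.7% to 63.7%, and no SOCS call changed.

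In the HSC-like class, Socs1 at 24 h passed without the low-count filter (1.05), and Socs3 with clusters built without interferon-stimulated genes was 1.38, 0.34 and 0.31 at 3, 24 and 72 h, the last 2 reversed. These clusters placed 55.4% of treated cells in the same class, against 93.8% for the transfer without correction. Leaving out cells with B cell transcripts, also chosen after seeing the data, turned Socs2 at 72 h to -0.036. Values near 0 changed sign when mice were left out. In the HSC-like class the ranges were -0.11 to 0.56 for Cish at 24 h, -0.48 to 0.20 for Cish at 72 h, -0.33 to 0.36 for Socs2 at 72 h and -0.59 to 0.12 for Socs3 at 24 h. In the LMPP-like class, Socs3 at 3 h kept its sign, with a range of 1.21 to 1.68. The ranges that crossed 0 there were -0.30 to 0.029 for Socs3 at 24 h and -0.32 to 0.20 for Socs1 at 72 h. Socs1 at 72 h was also -0.070 with library sizes alone, -0.0095 without the filter and -0.0425 with the uncorrected transfer. In the MK progenitor-like class they were -0.48 to 0.12 (3 h), -0.60 to 0.023 (24 h) and -0.45 to 0.14 (72 h) for Socs2 and -0.33 to 0.29 for Cish at 3 h, which was 0.17 with clusters built without interferon-stimulated genes. From 24 h to 72 h in the whole compartment, they were -0.21 to 0.22 for Socs2 and -0.027 to 0.15 for Cish.

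With 1 mouse left out, the exact test of class-weighted levels cannot give a p below 0.0571. The ratios ranged from 2.59 to 2.74 and 0.54 to 0.69 for Socs1 at 3 and 24 h, 1.41 to 2.13 for Socs3 and 0.85 to 1.13 for Cish at 3 h, and -0.20 to 0.044 for Socs2 at 72 h. With cluster weights, Socs2 at 3 h was 0.48 (exact permutation p = 0.0286).

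The hashtag numbers name different mice and give no pairing (deviations of same-numbered mice correlated by -0.064 to 0.111). With the number as a replicate block, 852, 265 and 347 genes were called at 3, 24 and 72 h, and no call of the 4 genes changed. Thinned to 5000 UMIs per cell, mean Socs1 was 7.09 CPM in control and 51.0 CPM at 3 h. Socs2 had 6.87 and 15.9 CPM, and Cish 6.20 and 10.6 CPM. Cish thus rose by less than the fold limit of 1 on the log2 scale. Over the pooled cells of a group, thinned Socs3 was 2.54 CPM in control and 8.75 CPM at 3 h. Thinned levels weigh each cell alike and were not fitted. The early-response list had 0 calls at 24 h by DESeq2, and at 72 h it had 2 by the likelihood ratio test, 1 by DESeq2 and 2 without control mouse 4, against 4. The interferon-stimulated list had 1 call at 72 h without control mouse 4, against 2. The causes of these shifts were not tested. Low counts limit the classes, since Socs2, Socs3 and Cish could be tested in 2 of 5 each.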
